A study of Homo sapiens with 10 samples.

Results

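The genes described here are the long intergenic noncoding RNA (LINC) genes with measurable expression in 7 ovarian cancer cell lines. A gene was a member when its whole name was LINC followed by digits and its level, averaged over the 8 PromethION libraries, reached 1 CPM (the gene's count scaled to the total count of its library). Of 1854 genes with such a name, 456 had a count in some library and 90 met the rule. Of all 57110 gene identifiers, 13515 reached the same threshold. The levels in the PromethION libraries therefore chose the members, and those levels are given as a description. Counts of calls between lines rest on the same levels and are printed beside their background only, with no single member's call. Just inside the threshold were LINC01431 at 1.07 CPM, LINC00526 at 1.06 CPM and LINC01123 at 1.03 CPM. Just outside were LINC00672 at 0.998 CPM, LINC02015 at 0.988 CPM and LINC01842 at 0.973 CPM. Without their highest line, 57 members kept a mean of at least 1 CPM, while 33 met the rule only through that line and so had to differ between lines.

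Long-read nanopore RNA sequencing covered 10 libraries of total RNA, made with 1 ligation kit to benchmark a transcript quantification package. COV362, COV504, SK-OV-3, OVMANA, OVKATE and OVTOKO had 1 library each on the PromethION instrument. For IGROV-1 there were 4 libraries, 2 from the PromethION and 2 from the MinION, a smaller instrument of the same maker. No line was treated or edited per the labels, and nothing states that the IGROV-1 replicates were separate cultures, so every p-value measures only the spread between these libraries, which may be technical.

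Long intergenic noncoding RNAs are transcribed by RNA polymerase II, capped, usually spliced and polyadenylated, but lack a long open reading frame. They are typically less abundant and more restricted to particular tissues than messenger RNAs. A LINC name is a placeholder, and some such genes have since been renamed for a neighbour, a hosted small RNA or a small protein that they encode. Of the 90 members, 13 carried another symbol in a later gene table. GENCODE 29 called 67 of them lincRNA, 8 antisense, 8 processed transcript, 3 transcribed unprocessed pseudogene, 2 bidirectional promoter lncRNA and 2 protein coding. The protein-coding members were LINC00116, now MTLN, which encodes the mitochondrial micropeptide mitoregulin, and LINC00094, now BRD3OS, which lies opposite BRD3. The leading transcript of a member was 294 to 9557 nt long with a median of 1871 nt, and had 1 to 8 exons with a median of 3 (89 members).

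Promoter sequences are shown first because the members found in few lines and those found in all lines differed in CG content. RefSeq (GRCh38.p14) gave a promoter for 70 of the 90 members. The 250 bases before the start of transcription were read, and the leading transcript of 43 of the 70 started inside the full 300-base window. The 5 shown were picked after their values were seen, among members whose leading transcript starts in the window. LINC00662 (chr19:27793941-27794190, minus strand) and LINC00294 (chr11:33075900-33076149, plus strand) reached 1 CPM in all 7 lines. LINC01508 (chr9:90433490-90433739, minus strand) reached it in 5 lines and was far highest in OVKATE. LINC01551 (chr14:28772454-28772703, plus strand) reached it in 2 lines and was highest in COV504. LINC00488 (chr3:109177915-109178164, plus strand) reached it in OVTOKO alone of the 7 lines. Sequences run 5′ to 3′ toward the start, and capitals mark the CG dinucleotides.
LINC00662: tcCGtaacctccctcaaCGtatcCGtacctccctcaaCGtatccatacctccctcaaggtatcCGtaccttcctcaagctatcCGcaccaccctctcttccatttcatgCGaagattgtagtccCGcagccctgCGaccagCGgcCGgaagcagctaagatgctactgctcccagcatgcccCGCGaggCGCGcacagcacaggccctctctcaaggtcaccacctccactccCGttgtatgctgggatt
LINC00294: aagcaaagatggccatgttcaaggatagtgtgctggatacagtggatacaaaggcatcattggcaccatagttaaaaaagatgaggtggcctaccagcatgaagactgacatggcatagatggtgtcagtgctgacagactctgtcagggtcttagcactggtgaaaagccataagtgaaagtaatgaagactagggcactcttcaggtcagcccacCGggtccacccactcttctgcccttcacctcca
LINC01508: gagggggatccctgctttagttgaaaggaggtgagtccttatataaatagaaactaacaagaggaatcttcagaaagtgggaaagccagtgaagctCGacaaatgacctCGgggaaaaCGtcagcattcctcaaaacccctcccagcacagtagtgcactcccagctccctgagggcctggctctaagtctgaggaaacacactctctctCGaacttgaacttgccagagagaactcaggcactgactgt
LINC01551: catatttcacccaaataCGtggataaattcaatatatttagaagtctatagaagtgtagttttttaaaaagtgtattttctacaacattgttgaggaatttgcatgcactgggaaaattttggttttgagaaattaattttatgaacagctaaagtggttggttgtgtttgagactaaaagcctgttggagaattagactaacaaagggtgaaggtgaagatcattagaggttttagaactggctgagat
LINC00488: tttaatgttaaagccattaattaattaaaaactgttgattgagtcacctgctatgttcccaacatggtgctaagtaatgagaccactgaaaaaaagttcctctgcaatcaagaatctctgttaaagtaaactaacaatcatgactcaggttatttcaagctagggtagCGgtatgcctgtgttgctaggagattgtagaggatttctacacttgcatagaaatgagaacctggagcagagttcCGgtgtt

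The LINC00662 window held 16 CG dinucleotides, while those of LINC01508, LINC00488 and LINC01551 held 4, 2 and 1. Broadly expressed members could also be low, as LINC00294 held 1 CG in its window. LINC00623 and LINC01232, also in all 7 lines, held 3 each, though their leading transcripts start elsewhere. Over the 18 members with a promoter and at least 1 CPM in all 7 lines, the median was 21.5 CG dinucleotides (range 1 to 35). Over the 42 members reaching 1 CPM in 3 to 6 lines the median was 16.0, and over the 10 members in 1 or 2 lines it was 2.5 (range 1 to 30). The course was not even, since the 12 members in 4 lines had a median of 4.5 and the 12 in 3 lines a median of 19.5. With the 43 members whose leading transcript starts in the window, the medians were 17.5 (8 members), 17.0 (27 members) and 2.5 (8 members). A promoter counted as CG-rich when its GC content was at least 50% and its CG count at least 0.6 of that expected from its base composition. By this measure 12 of 18 (66.7%), 22 of 42 (52.4%) and 1 of 10 were CG-rich, against 44.9% of all 27305 RefSeq promoters, 60.4% of the protein-coding and 23.3% of the long noncoding ones. The median level of the same groups of members was 6.47, 2.06 and 1.87 CPM, so breadth and level moved together, and the part of level in the CG difference was not tested. In the lines with a single library, 1 count was 0.392 (COV362) to 0.578 CPM (OVTOKO). For low members the number of lines at 1 CPM thus turned on few counts.

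**Figure D1:**
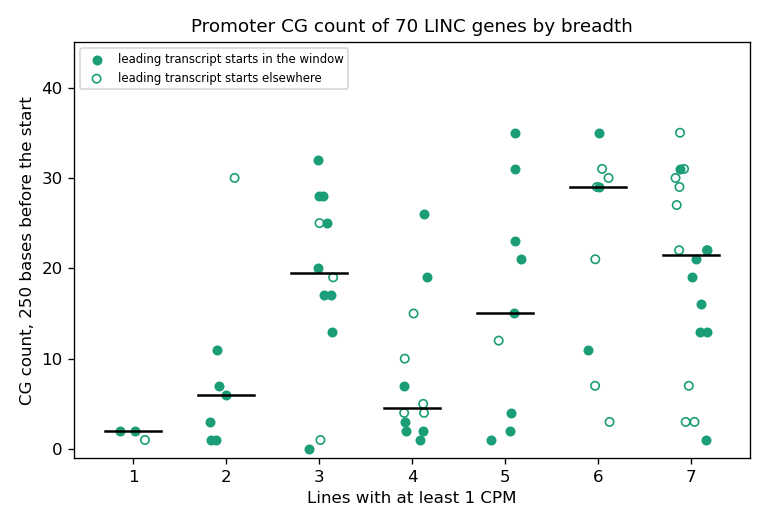
CG dinucleotides in the 250 bases before the RefSeq start (y axis) against the number of lines with at least 1 CPM (x axis, points spread sideways) for 70 LINC genes; filled points are genes whose leading transcript starts in the window, bars are medians. The 3 genes found in 1 line have a median of 2.0 and the 18 found in 7 lines a median of 21.5, with a median of 4.5 at 4 lines.

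Library totals ran from 1729782 to 3666224 counts, so that a count of 0 allowed up to 0.643 CPM in IGROV-1 on the PromethION (both libraries summed), up to 0.435 CPM there on the MinION, and 1.18 to 1.73 CPM in the single libraries of other lines (3 counts, counting error only). Members took 0.0235% (OVMANA) to 0.0929% (OVKATE) of a library. Their summed level was 235 CPM in OVMANA, 512 in COV504, 564 in COV362, 577 in SK-OV-3, 727 in OVTOKO and 929 in OVKATE, against 276 and 256 in the IGROV-1 PromethION libraries and 247 and 245 in the MinION libraries. Single genes held a large part of some sums. LINC02274 alone was at 369 CPM in OVTOKO. The protein-coding LINC00116 was at 158 CPM in OVKATE, 137 in COV362, 135 in COV504 and 89.1 in SK-OV-3, but at 0 in OVMANA and OVTOKO. Between 58 and 75 of the 90 had a count in a given library. The epithelial and ovarian marker PAX8 was at 84.1 to 340 CPM in all 10 libraries, and KRT18 was at 244 to 4627 CPM. EPCAM was at 0 to 1.54 CPM in the 4 IGROV-1 libraries and 8.67 to 1814 CPM in the other lines. KRT8 was at 5.15 to 11.4 CPM in IGROV-1 and 134 to 3274 CPM elsewhere, and KRT19 was at 0.578 CPM in OVTOKO and at least 136 CPM in every other library. The 6 markers of blood and endothelial cells summed to 0.427 to 14.8 CPM, with CD3E at 0 in every library and the highest sum in OVKATE. Mitochondrial ribosomal RNA took 9.13% and 10.9% of the IGROV-1 PromethION counts and 1.15% and 1.01% of the MinION counts, against 1.58% to 3.31% in the other lines, and its part in the member levels was not tested. In such bulk samples, fewer cells expressing a gene and less RNA per cell cannot be told apart.

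Most members were low and uneven. Their median mean level was 2.46 CPM, against 18.3 CPM for all genes at the same threshold. The highest line held a median of 38.3% of a member's level summed over the 7 lines, against 27.1% for all such genes. In 10 members (11.1%) 1 line held at least 90%, against 2.06% of all genes. Only 20 members (22.2%) reached 1 CPM in all 7 lines, against 69.4% of all genes, and 8 (8.89%) reached it in 1 line, against 1.62%. Much of this gap went with level. Among genes with a mean of 1 to 10 CPM, the median share of the highest line was 39.0% over 80 members and 35.3% over 4734 genes of all kinds, and 11.2% against 4.31% had at least 90% in 1 line. All 7 lines were reached by 18.8% and 31.7% of these. Within that range the members were still lower, at a median of 2.17 against 3.88 CPM.

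**Figure D2:**
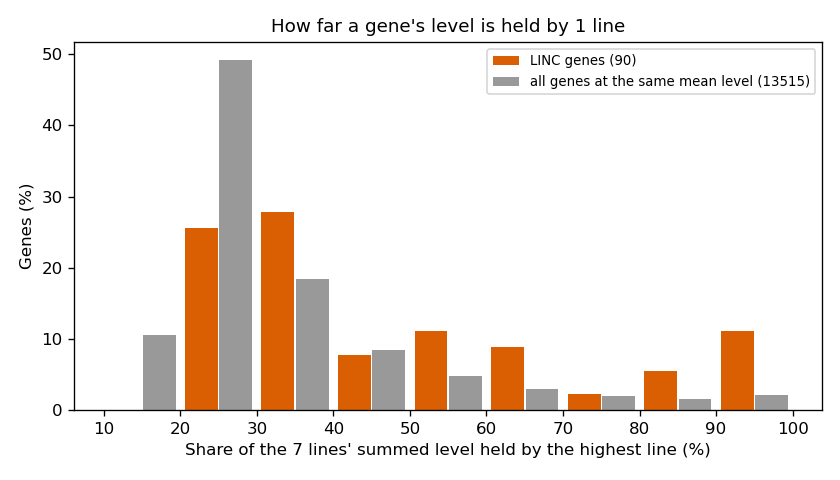
Percentage of genes (y axis) by the share of the level summed over 7 lines that is held by the highest line (x axis, in steps of 10 percentage points) for 90 LINC genes and 13515 genes of all kinds. The LINC bars extend further right, with 11.1% of members against 2.06% of all genes in the last step.

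OVKATE was the highest line for 34 members (37.8%), while it was highest for 26.2% of all genes. SK-OV-3 led for 17 (18.9% against 18.5%), OVTOKO for 11 (12.2% against 9.60%), COV362 for 10 (11.1% against 10.6%), COV504 for 8 (8.89% against 11.7%), and OVMANA and IGROV-1 for 5 each (5.56%, against 10.6% and 12.9%). The heatmap of all members shows the OVKATE block as the tallest.

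**Figure D3:**
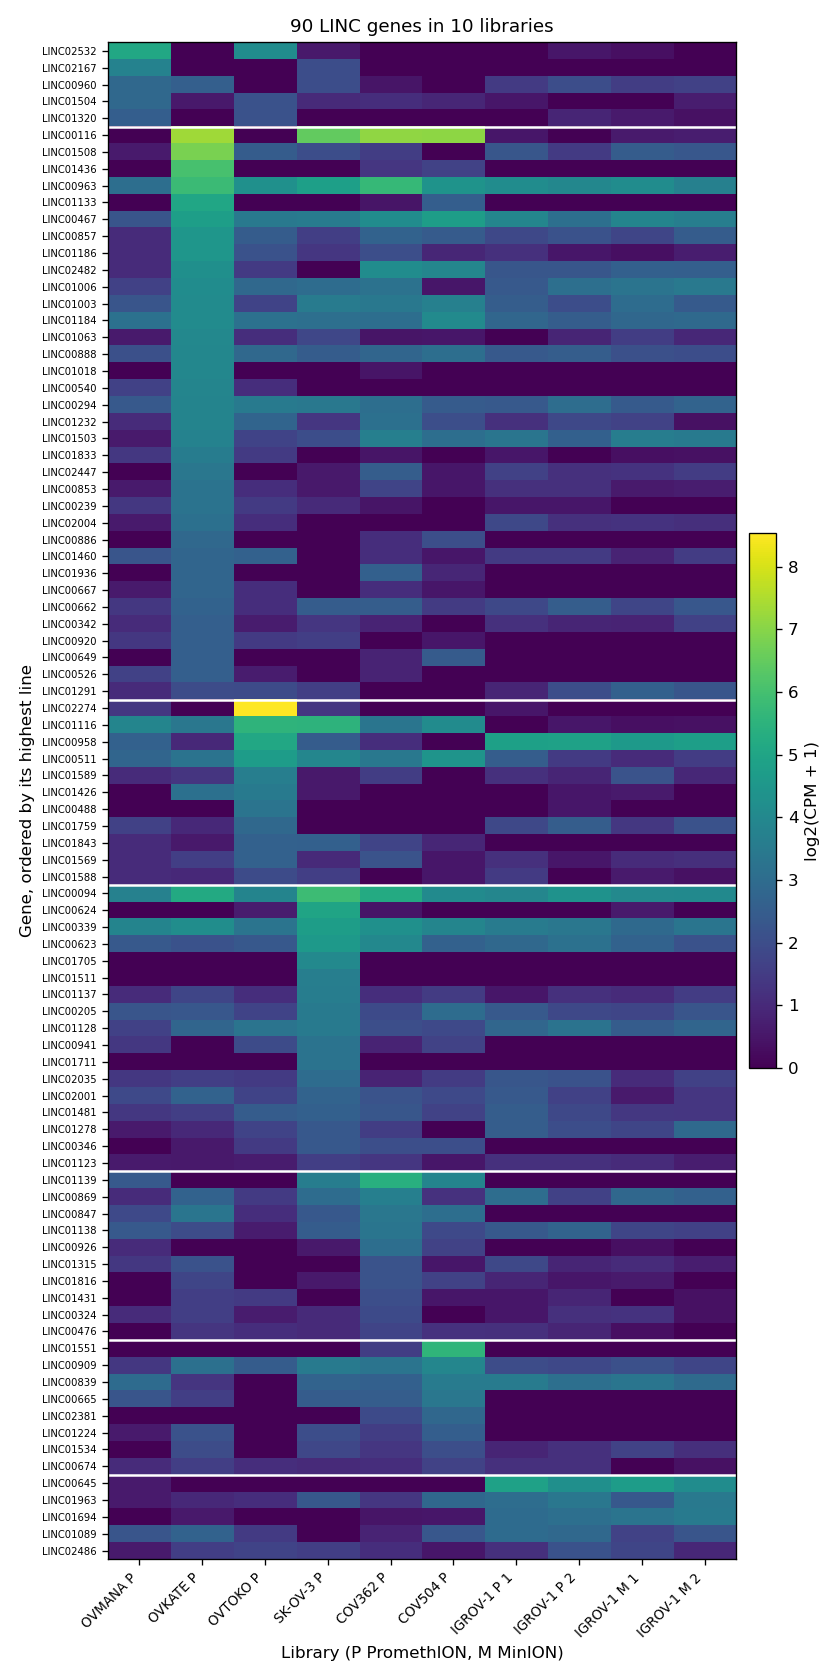
Level of each of the 90 LINC genes (rows, grouped by highest line and sorted by level there) in 10 libraries (columns, P for PromethION and M for MinION), coloured by log2(CPM + 1). The OVKATE block holds 34 rows and the OVMANA and IGROV-1 blocks 5 each, and the 4 IGROV-1 columns look alike.

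All positions are in GRCh38. The highest member was LINC00116 (ENSG00000175701, chr2:110211529-110245420, minus strand), the mitoregulin gene. It was at 158 CPM in OVKATE, 137 in COV362, 135 in COV504 and 89.1 in SK-OV-3, and at 0 in OVMANA and OVTOKO. In IGROV-1 it was at 0.427 and 0 CPM on the PromethION and at 0.546 and 0.618 CPM on the MinION. The lines thus fell into 4 with at least 176 counts and 3 with at most 2 counts in any library, with no level between. Against the single count of both IGROV-1 PromethION libraries, the ratio was 737 for OVKATE (95% exact counting interval 131 to 29187) and 416 for SK-OV-3 (73.7 to 16531). The 441-nt transcript ENST00000611969 held 78.6% of its counts in OVKATE (Wilson 95% interval 73.7 to 82.7), 85.7% in SK-OV-3 (79.8 to 90.1), 78.1% in COV362 (73.5 to 82.2) and 82.5% in COV504 (77.8 to 86.4). The same transcript led in all 4 lines, and the intervals overlapped. An exon of the gene overlaps AC140479.4 on the opposite strand, and use of strand in the counting is not given in the sources used here.

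LINC02274 (ENSG00000258586, chr14:73822559-73830135, minus strand) was a gene of 1 line. It was at 369 CPM in OVTOKO (638 counts), 1.60 in OVMANA, 1.52 in SK-OV-3, 0.427 in 1 IGROV-1 PromethION library and 0 elsewhere. OVTOKO held 99.1% of its level over the 7 lines, and 369 CPM was the highest level of any of the 90 members in any of the 10 libraries. Its single quantified transcript has 1174 nt in 2 exons, and no exon overlap with another gene was found.

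LINC01508 (ENSG00000231107, chr9:90300902-90433505, minus strand) had a like form in another line, without being confined to it. It was at 112 CPM in OVKATE, 4.62 in OVTOKO, 3.04 in SK-OV-3, 1.96 in COV362, 0.534 in OVMANA and 0 in COV504. IGROV-1 was at 3.84 and 1.72 CPM on the PromethION and 4.64 and 4.02 CPM on the MinION. OVKATE held 89.6% of the level.

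Members expressed in every line had smaller ranges. LINC00963 (ENSG00000204054, chr9:129483451-129513683, plus strand), studied mainly in prostate cancer, was at 7.48 CPM in OVMANA, 18.5 in OVTOKO, 20.02 in COV504, 26.8 in SK-OV-3, 50.9 in COV362 and 55.4 in OVKATE. IGROV-1 was at 16.7 and 14.6 CPM (PromethION) and 16.6 and 12.0 CPM (MinION). OVKATE and COV362 stood above the rest, and the 9557-nt transcript ENST00000419300 held 97.0% of the counts.

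LINC00094 (ENSG00000235106, chr9:134025439-134031585, plus strand), the BRD3OS gene, was at 57.2 CPM in SK-OV-3, 36.0 in COV362, 35.6 in OVKATE, 16.0 in COV504, 13.3 in OVTOKO and 12.3 in OVMANA. IGROV-1 was at 14.1 and 19.3 CPM on the PromethION and 15.0 and 15.4 CPM on the MinION. The lower 3 lines lay within or just under the IGROV-1 range. The shares of its transcripts are a quantity the choice of members did not use. The 2300-nt transcript ENST00000432807, which ends upstream of the 5722-nt ENST00000603928, held 54.0% of the COV362 counts (Wilson 95% interval 43.8 to 63.8, 92 counts), 47.8% in OVMANA (29.2 to 67.0), 44.4% in OVTOKO (26.4 to 64.0), 43.1% in COV504 (28.4 to 59.2), 39.9% in SK-OV-3 (31.3 to 49.1) and 28.5% in OVKATE (19.4 to 39.8). In IGROV-1 it held 0.888% (0.0591 to 12.0) and 9.05% (3.61 to 20.9) on the PromethION and 19.9% (11.5 to 32.2) and 21.7% (12.5 to 34.9) on the MinION. The IGROV-1 shares were the 4 lowest, although the intervals of all but the first PromethION library overlapped that of OVKATE, and the difference between lines was not tested. Exons of this gene overlap BRD3 on the opposite strand.

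LINC01116 (ENSG00000163364, chr2:176629589-176637931, minus strand) was close to absent from IGROV-1 alone. It was at 46.2 CPM in OVTOKO, 45.1 in SK-OV-3, 16.5 in COV504, 13.9 in OVMANA, 9.40 in OVKATE and 9.01 in COV362. The IGROV-1 libraries were at 0 and 0.430 CPM (PromethION) and 0.273 and 0.309 CPM (MinION), that is at most 1 count each. The ratio to the single PromethION count was 42.1 in COV362 (95% exact counting interval 6.83 to 1733) and 216 in OVTOKO (37.7 to 8635). The leading transcript, ENST00000295549, took every count.

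LINC00958 (ENSG00000251381, chr11:12961842-12989548, minus strand), a transcript first described in bladder cancer, went the other way. It was at 33.5 CPM in OVTOKO, 5.34 in OVMANA, 4.56 in SK-OV-3, 1.18 in COV362, 0.989 in OVKATE and 0 in COV504. IGROV-1 was at 27.8 and 28.8 CPM on the PromethION and 22.9 and 26.3 CPM on the MinION, so OVTOKO and IGROV-1 stood together above the other 5 lines. The 1558-nt ENST00000504230 led on both instruments, with 69.2% and 77.6% on the PromethION and 70.2% and 72.9% on the MinION.

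The other 3 of the 10 highest members were in all 7 lines. LINC00339 (chr1:22024558-22031223, plus strand) was at 25.8, 18.4, 17.3, 13.8, 13.4 and 8.67 CPM in SK-OV-3, COV362, OVKATE, COV504, OVMANA and OVTOKO, and at 10.7, 9.45, 6.55 and 8.96 CPM in IGROV-1. LINC00467 (chr1:211382803-211435333, plus strand), for which a small mitochondrial peptide has been described, was at 10.6, 16.8, 26.7, 25.8, 3.74 and 9.83 CPM in the same order, and at 14.1, 7.73, 13.4 and 11.4 CPM in IGROV-1. LINC00511 (chr17:72324063-72640472, minus strand), widely studied in carcinomas, was at 14.2, 9.79, 8.41, 20.5, 5.88 and 25.4 CPM in that order too, and at 4.70, 1.72, 1.09 and 1.85 CPM in IGROV-1. For LINC00511 every other line was above all 4 IGROV-1 libraries, while for LINC00339 and LINC00467 the ranges met.

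**Figure D4:**
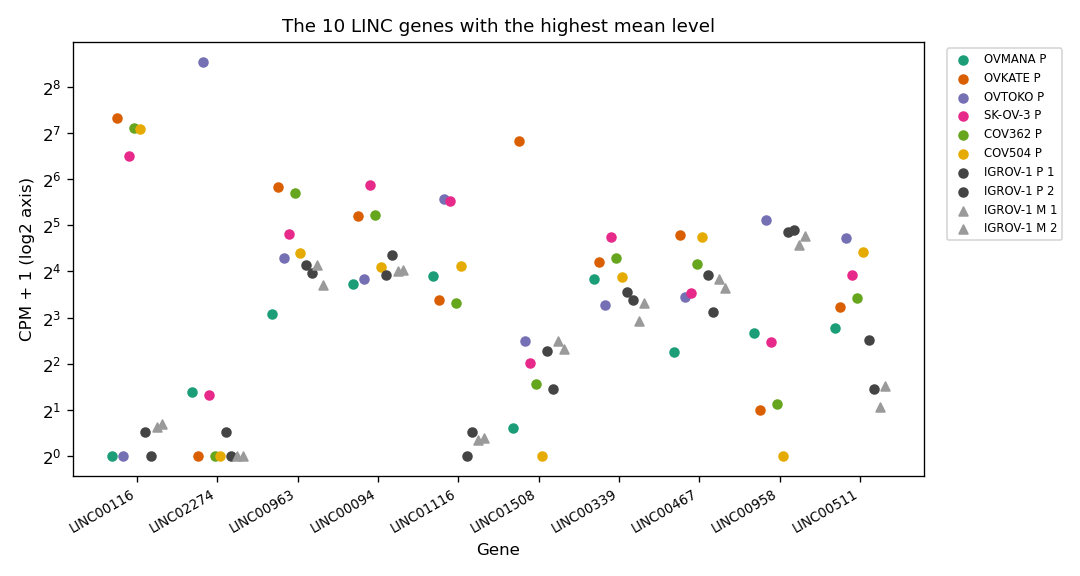
CPM + 1 on a log2 axis (y axis) of the 10 LINC genes with the highest mean level (x axis) in 6 lines with 1 PromethION library each and in 4 IGROV-1 libraries (dark circles PromethION, grey triangles MinION). LINC00116 splits into 4 high lines and 3 near 0, while LINC02274 and LINC01508 each have 1 line far above the rest at 369 and 112 CPM.

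The flattest members, by the ratio of the highest to the lowest line among those with a mean of at least 5 CPM, were LINC00339 (2.98), LINC01184 (3.05), LINC00294 (3.12), LINC00888 (4.47) and LINC00094 (4.66). LINC01184, transcribed head to head with the cotransporter gene SLC12A2, ran from 5.35 CPM ± 0.888 (SD, n = 2) in IGROV-1 to 16.3 in OVKATE. LINC00294 ran from 4.27 in OVMANA to 13.4 in OVKATE. LINC00888, which RefSeq names as the snoRNA host gene SNHG33, ran from 3.21 to 14.3 CPM between the same lines.

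For each line, the 2 members with the largest ratio to the next line were named, among those highest there at 5 CPM or more. Every line has such members by this choice, and some were not far above the next line. In OVMANA these were LINC02532, at 33.7 CPM with 16.8 in OVTOKO as the next line, and LINC02167, at 12.8 with 3.04 in SK-OV-3. In OVKATE LINC01436 was at 65.3 CPM, with 2.22 in COV504, 1.57 in COV362 and 0 in every other library. OVTOKO had LINC00488 at 8.67 CPM besides LINC02274. SK-OV-3 had LINC00624 at 30.9 CPM and LINC01705 at 15.2 CPM, the latter with 0 counts in all 9 other libraries. COV362 had LINC01139 at 40.7 CPM, followed by COV504 at 13.8 and SK-OV-3 at 11.1, and LINC00926 at 7.44 CPM. COV504 had LINC01551 at 47.2 CPM, with 1.96 in COV362 and 0 in the other 8 libraries, and LINC02381 at 6.23 CPM with 2.74 in COV362. Both COV504 members thus had COV362 as their single other line.

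IGROV-1 had LINC00645 (ENSG00000258548, chr14:27612611-27639636, plus strand) at 28.2 and 18.04 CPM on the PromethION and 25.1 and 16.7 CPM on the MinION. Among the other lines only OVMANA had any, 1 count (0.534 CPM). LINC01694 was at 6.83, 7.73, 8.73 and 10.2 CPM in the same 4 libraries and at no more than 0.495 CPM in another line. Both were present in every IGROV-1 library and near 0 elsewhere. The MinION values had no part in choosing the members.

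LINC02532 (ENSG00000235142, chr6:106717452-106787541, minus strand) had a different leading transcript in the OVMANA and OVTOKO libraries. In OVMANA the 2464-nt ENST00000602934 held 63.5% of 63 counts (Wilson 95% interval 51.1 to 74.3) and the 570-nt ENST00000433965 held 36.5% (25.7 to 48.9). In OVTOKO the order was reversed, with 17.2% (7.60 to 34.5) and 62.1% (44.0 to 77.3) of 29 counts. The intervals for ENST00000602934 did not overlap, while those for ENST00000433965 did. All these intervals cover counting error only, and with 1 library per line a difference between the lines was not tested. Of 46 members with more than 1 quantified transcript, 14 had at least 20 counts in 2 or more PromethION libraries, and 12 of these kept the same leading transcript throughout, the exceptions being LINC02532 and LINC00094.

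Several members have been studied as noncoding regulators in carcinomas. Besides LINC00963, LINC01116, LINC00467 and LINC00511 described above, with means of 26.3, 17.6, 14.4 and 11.3 CPM, these were LINC01503 (6.52), LINC01133 (4.68), LINC00662 (3.32), LINC00665 (3.04) and LINC00941 (2.01 CPM). LINC00665, for which a small peptide has been reported, was at 9.34 CPM in COV504, 4.70 in COV362, 4.56 in SK-OV-3, 3.74 in OVMANA and 1.98 in OVKATE, and had no count in OVTOKO or in any IGROV-1 library. LINC01133 was at 32.1 CPM in OVKATE and 4.89 in COV504, with 0.392 in COV362 and 0 elsewhere. LINC00941 was at 8.61 CPM in SK-OV-3, 2.89 in OVTOKO, 2.22 in COV504, 1.60 in OVMANA and 0.784 in COV362, and at 0 in the other libraries. LINC00662 stayed between 1.16 CPM in OVTOKO and 5.44 in OVKATE. LINC01503, described in squamous cell carcinoma, was at 12.9 CPM in OVKATE, 11.8 in COV362 and 7.56 in COV504, and at 0.534 in OVMANA, with IGROV-1 at 8.97, 5.15, 11.2 and 10.5 CPM. Of other much-studied LINC genes, LINC01234 (0.842 CPM), LINC00707 (0.264) and LINC00858 (0.162) missed the threshold on their mean, and LINC00473 and LINC00520 were at 0 in all 8 PromethION libraries.

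The comparison of each line with IGROV-1 used edgeR's quasi-likelihood test over all 13030 genes that passed the filter on low counts, of which 79 were members. The other 11 members did not pass it. As each other line had 1 library, the spread came from the IGROV-1 replicates alone (2 residual degrees of freedom), and all 6 comparisons share the same IGROV-1 libraries. At a Benjamini-Hochberg adjusted p under 0.05, 36 of the 79 members were called in OVKATE, where 49.2% of all tested genes were called, 31 of them higher (background 26.8%) and 5 lower (22.4%). In COV504 28 were called (background 43.5%), 20 higher (24.0%) and 8 lower (19.6%). SK-OV-3 had 25 (background 41.8%), 19 higher (22.0%) and 6 lower (19.8%). COV362 had 22 (background 42.5%), 16 higher (23.7%) and 6 lower (18.8%). OVTOKO had 14 (background 34.1%), 10 higher (18.2%) and 4 lower (15.9%). OVMANA had 13 (background 35.4%), 8 higher (18.9%) and 5 lower (16.5%). The members' shares were 45.6%, 35.4%, 31.6%, 27.8%, 17.7% and 16.5% in the same order. These levels chose the members, so nothing is read from the counts. With DESeq2's Wald test the counts were 7, 6, 4, 5, 3 and 2.

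The median log2 difference of the tested members was 0.90 in OVKATE and 0.77 in COV362, and between 0.00 and 0.14 in the other 4 lines, against -0.01 to 0.04 over all tested genes. The same levels chose the members, so nothing is read from these medians either.

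Long noncoding RNA genes without a LINC name differed from IGROV-1 in both directions. Of 25 such genes listed, 23 were matched by name and 18 were tested in the line comparisons. UCA1, a bladder cancer transcript, was at 114 CPM in OVMANA, 102 in COV504 and 81.6 in OVKATE. It was at 2.74 CPM in COV362, 1.73 in OVTOKO, 1.01 in SK-OV-3 and 0 in IGROV-1. The OVTOKO level equals the limit for a count of 0 there. NEAT1, the scaffold of paraspeckles, was at 63.1 CPM in OVMANA and 151 to 396 in the other lines. The IGROV-1 PromethION libraries had 95.3 and 76.9 CPM. DANCR was at 22.8 to 113 CPM, against 431 and 349 in those libraries. CYTOR was at 207 CPM in OVKATE and 60.1 to 115 in the other lines, against 129 and 175. Each of these lines had 1 library and the spread came from the IGROV-1 replicates alone, so levels are given without calls.

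The 2 instruments gave similar LINC levels for IGROV-1. Of the 90 members, 41 were at 1 CPM or more in both PromethION libraries, and 34 of these (82.9%) were so in both MinION libraries, against 97.0% of 11004 genes of all kinds. The 7 that were not are LINC01232, LINC02001, LINC01460, LINC00853, LINC02486, LINC00674 and LINC01123. The genes of all kinds were not matched to the members in level. The part of level in the gap between 82.9% and 97.0% was not tested. Over the 41, Spearman's rho between the mean levels was 0.89 (0.98 over the 11004 genes), a description across genes that share libraries and are not independent replicates. The median log2 difference, MinION minus PromethION with 1 CPM added, was -0.19 for the 41 and 0.03 for the 11004. Absence also repeated. Of 25 members with no count in either PromethION library, 23 (92.0%) had none on the MinION, against 81.5% of 1221 genes of all kinds. LINC00624 (2 counts) and LINC00926 (1 count) were the others.

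**Figure D5:**
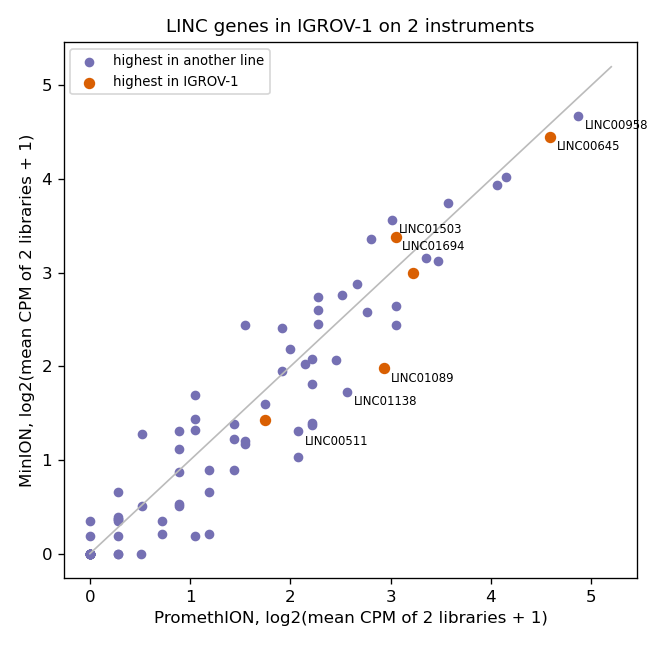
Mean IGROV-1 level of the 90 LINC genes on the MinION (y axis) against the PromethION (x axis), each log2(mean CPM of 2 libraries + 1); the line marks equality and orange points are genes whose highest line is IGROV-1. LINC01089 and LINC01138 lie below the line, LINC01503 above it, and 23 genes sit at 0 on both axes.

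The 23 members with no count in any IGROV-1 library were limited to at most 0.259 CPM over all 4. Among them were genes of a single other line, such as LINC01705, LINC01511 and LINC01711 in SK-OV-3 (15.2, 11.6 and 8.61 CPM), and genes found in most other lines, such as LINC00847 in all 6 (1.16 to 9.40 CPM). The level of LINC01436 in OVKATE was 102 times the limit over both PromethION libraries. LINC01551 in COV504 was at 73.4 times that limit, LINC01139 in COV362 at 63.4 times and LINC01133 in OVKATE at 50.04 times. These ratios leave out the counting error in the level of the other line. Of all 13515 genes that reached the same threshold, 7.36% had no count in any IGROV-1 library, against 25.6% of the members. The members were lower, at a median mean level of 2.46 against 18.3 CPM. The part of level in this gap was not tested.

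No member passed the test between the instruments. Of 26 members tested with edgeR's quasi-likelihood test on the 4 IGROV-1 libraries, 0 were called at an adjusted p under 0.05, against a background of 0.817% of 10041 genes, and DESeq2 also called 0. At an unadjusted p under 0.05 there were 2 by edgeR and 0 by DESeq2. LINC01089, transcribed head to head with the histone methyltransferase gene SETD1B, was at 6.83 and 6.44 CPM on the PromethION and 2.18 and 3.71 CPM on the MinION, so the pairs did not overlap. Its log2 difference was -1.22 (SE 0.40), with an edgeR Benjamini-Hochberg adjusted p of 0.19 and, over the alternatives, 0.041 to 0.93. LINC01138 was at 4.27 and 5.58 CPM against 2.45 and 2.16 CPM, a log2 difference of -1.11 (SE 0.42) whose adjusted p by edgeR with Benjamini-Hochberg was 0.25 (0.13 to 1.00 over the alternatives). Of the 11 listed long noncoding genes without a LINC name that were tested, MALAT1 and CYTOR were called, both lower on the MinION. MALAT1, a nuclear RNA, was at 4537 and 3942 CPM on the PromethION and 553 and 598 CPM on the MinION.

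The share of each transcript within its gene could be tested for 1 member. LINC00958 was not called between the instruments (edgeR's gene-level Simes test, Benjamini-Hochberg adjusted p = 1.00), where 5.91% of 2979 tested genes were called. The other members had a single quantified transcript or did not keep more than 1 past the filter on low counts. With no such filter 22 members were tested and 0 called.

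The nearest coding gene of each member was compared with it over the lines. Of the 90, 17 have the start of a protein-coding gene within 5000 bases of their own, 11 of them in divergent orientation, 5 facing and 1 on the same strand. For the 15 whose neighbour has rows of its own and reached 1 CPM in some line, the median Spearman's rho over the 7 lines was 0.38, and 6 shared their highest line. For 56 members with a more distant neighbour the values were 0.28 and 18, and the difference was not tested. These are descriptions over 7 lines that share the libraries.

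LINC01436 (ENSG00000231106, chr21:36005338-36007838, plus strand) starts 671 bases from a start of RUNX1, the haematopoietic and epithelial transcription factor, in divergent orientation. RUNX1 was at 35.6 CPM in OVKATE, where LINC01436 was at 65.3, and at 25.8 in SK-OV-3, 18.8 in COV362, 14.2 in COV504, 8.55 in OVMANA, 8.09 in OVTOKO and 3.42 and 1.29 in the IGROV-1 PromethION libraries. SK-OV-3 had RUNX1 without a LINC01436 count, and rho over the 7 lines was 0.63. The distance is to the outermost GENCODE 29 start of RUNX1, while its level sums all its transcripts. Use of that start in these lines was therefore not shown. The next 2 pairs were chosen after their values were seen. The GENCODE 29 start of LINC00941 lies 216 bases from CAPRIN2, which encodes an RNA-binding protein. Both were highest in SK-OV-3 (8.61 and 30.4 CPM). The single quantified LINC00941 transcript (chr12:30795931-30802711, plus strand) was not found under this gene in GENCODE 29. It starts outside the RefSeq promoter window, so a start shared with CAPRIN2 was not shown for it. Exons of the gene overlap AC010198.1 and another LINC00941 entry on the same strand. LINC01508 starts 209600 bases from DIRAS2, a small GTPase gene, which was at 40.1 CPM in OVKATE and at most 0.506 CPM elsewhere. DIRAS2 and LINC01508 thus had the same single high line.

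Exons of 36 of the 90 members overlap an exon of another gene in GENCODE 29, on the opposite strand for 32 and on the same strand for 10. For these members the counts may hold reads of the other gene. LINC00339, LINC01089 and LINC01138 are among them and overlap other genes on both strands. LINC00294 overlaps CSTF3 and PIGCP1 on the opposite strand.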

How the data were processed

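Estimated counts per transcript and a TPM value were deposited by the authors for 10 libraries of 7 cell lines. Per the submitters' processing notes, reads were aligned with minimap2 2.24-r1122 and the build was GRCh38. For the quantifier, its settings, the annotation release and strand, the entry is: not given in the sources used here. Deposited TPM values equalled the CPM of the estimated counts and were not divided by transcript length. Of 99493 transcripts, 99233 were found in GENCODE 29, which gave positions, types and neighbours.

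Estimated counts were summed per gene and rounded to whole numbers. edgeR 4.0.16 (R 4.3.3) was run with TMM, filterByExpr, glmQLFit and glmQLFTest, with p-values adjusted by Benjamini-Hochberg over all tested genes. DESeq2 1.42.0, other filters, normalization and sample sets, and fits without each replicate were the alternatives. The scripts were tested on simulated data. Replicate libraries of IGROV-1 on 1 instrument were further apart than sampling noise (chi-square per degree of freedom 4.36 and 6.73), so each library counted as a sample. Libraries held 1729782 to 3666224 counts, and intervals cover counting error only.

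The members and lists were chosen with earlier results of these data known. Named in the text were the 10 highest members, the 2 most line-restricted ones per line at 5 CPM or more, the 5 flattest, those called between the instruments (none), those nearest the threshold, those with a studied role or small protein, and coding neighbours within 5000 bases. CpG counts used 250 bases of RefSeq promoters. Genes joined under 1 identifier were left out of the members. The values of 1 neighbouring gene are not reported here.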

Additional observations from a re-analysis of the deposited data

How the results depend on the processing

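The number of members was 90, between 82 and 99 with all 10 libraries averaged, the 7 lines averaged, joined names included or 1 IGROV-1 library left out, and 53 with the threshold at 2 CPM. The median share of the highest line, 38.3%, was 38.5% to 38.6% without 1 IGROV-1 PromethION library, 39.3% with the MinION libraries for IGROV-1, 39.5% with members by the mean over the 7 lines and 33.0% with 1 CPM added to every level. With DESeq2's Wald test the members called against IGROV-1 fell to 7 (OVKATE), 6 (COV504), 5 (COV362), 4 (SK-OV-3), 3 (OVTOKO) and 2 (OVMANA), and the calls over all genes fell from between 4443 and 6405 to between 1298 and 2095. The cause was not tested. Leaving out 1 IGROV-1 library gave 8 to 18 members in OVMANA (13 with all), the 8 without MinION replicate 1, which also took the calls over all genes in OVTOKO from 4443 to 2890. The other alternatives kept the members called within 1.5 times the reported counts. The replicate numbers of IGROV-1 are not said to mark a shared culture. With the replicate block, 1 member (LINC01089, adjusted p 0.041 by edgeR with Benjamini-Hochberg) and 1979 genes of all kinds were called between the instruments, against 0 and 82 without it, and usage called 0 members either way. Deviations of the same-numbered libraries from their group means correlated at 0.37 over 9973 genes, with only 2 pairs. Over all genes the instruments' 82 calls became 15 with no filter, 49 with all 10 libraries, 209 and 35 without PromethION replicate 1 and 2, and 8 and 4 without MinION replicate 1 and 2. The 176 usage calls became 40 to 59 without any 1 of the 4 libraries. A single library per line and 2 replicates of 1 line limit every comparison between lines, and members near 1 CPM rest on few counts.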

Other observations

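Some LINC genes were deposited under an identifier that joins several overlapping genes, so their counts cannot be assigned to 1 gene. There were 21 such identifiers with a LINC name, and 9 had a mean of at least 1 CPM over the PromethION libraries. The highest joined LINC01578, AC013394.1 and CHD2, a chromatin remodeller gene, at a mean of 118 CPM (51.8 in OVMANA to 166 in OVKATE). The next joined IDS, which encodes iduronate-2-sulfatase, with AC244197.3 and LINC00893 at a mean of 50.2 CPM. The identifier of LINC00969, SDHAP2, AC233280.20 and the mucin gene MUC20 was at 203 CPM in OVKATE and between 4.33 and 9.62 CPM in the 9 other libraries. AF127577.4 joined with LINC02246 was at 17.9 CPM in OVTOKO and between 0.495 and 3.56 CPM in the others. These identifiers are no members, and their values were chosen after they were seen.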
